A study of Mus musculus with 2 samples.

Results

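This section describes the accessibility of 46 imprinted mouse genes that lie outside the Prader-Willi domain, grouped in 21 imprinted clusters. The genes were chosen by name, as genes known to be imprinted, with no threshold on their values. Earlier results of these data were known when they and the gene lists used below were chosen. Each gene was matched to the 50 kb windows of the deposited table that share at least 1 base with its RefSeq gene body in the mm10 (GRCm38) genome. Of the 46 genes, 45 had at least 1 window in the table, among 30124 protein coding or long noncoding RNA genes with a window. Together they covered 94 of 43941 windows. Nnat, which encodes neuronatin, had no row, so only its start region enters the sequence description below. Copg2 and Usp29 each lacked 1 of their windows. Windows are wide, so 21 of the genes shared a window with another member and are not independent of each other.

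The cells were F121-6, a female hybrid embryonic stem cell line derived from a 129 and castaneus (CAS) cross and kept with LIF, serum and inactivated embryonic fibroblast feeders. Open chromatin was mapped by ATAC-seq, whose transposase inserts sequencing adapters into accessible DNA, in 2 replicates of 200000 cells each. Counts were given separately for the 129 and the CAS copy of each window, so the comparison is between the 2 chromosome sets of the same cells. The labels do not say which strain was the mother, that the replicates were separate cultures, or whether any batch was shared. The p-values below therefore carry only counting error and the spread between these libraries, which may be technical. Counting error assumes independent reads, and the values varied less between alleles than that, so the p-values are approximate. No value here is a test of imprinting.

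An imprinted gene is transcribed mainly from the copy inherited from 1 parent. In most cases the choice is set by DNA methylation laid down in the egg or the sperm at an imprinting control region. This methylation is kept after fertilisation by the zinc finger protein ZFP57 and its partner TRIM28. Many imprinted genes act on growth, the placenta and metabolism, and most lie in clusters in which a noncoding RNA or an insulator governs several neighbours. On the unmethylated copy a control region is usually open, which is why allele-resolved accessibility is of interest at these genes.

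Replicate 1 held 44026 counts on 129 and 46128 on CAS, and replicate 2 held 59812 and 59995, a mean of 1.00 to 1.37 counts per window. No window of the 46 genes held more than 8 counts in a column, and no gene summed to more than 13. Markers of embryonic stem cells were open in these libraries: all 8 of Pou5f1, Nanog, Sox2, Klf4, Esrrb, Tfcp2l1, Zfp42 and Tdgf1 had more counts per window than the rest of their chromosome in both replicates, at medians of 4.18 and 4.30 times, with totals of 7 to 89. Of 8 fibroblast markers, which feeder cells could contribute, 2 did so, at medians of 0.545 and 0.662 times, with totals of 0 (Postn) to 18. How far feeder chromatin contributes to the counts of the imprinted genes was not tested.

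The start regions of some of these genes are shown because the germline imprints of many clusters lie at promoters. The windows are far wider than a promoter, so the counts cannot be placed on these bases. Of the 46 genes, 36 matched the RefSeq promoter table (GRCm38.p6), with 54 start regions of 300 bases, from 250 before to 50 after the annotated start. H19, Peg10, Sgce, Klf14, Kcnq1, Cdkn1c, Rtl1, Trappc9, Peg13 and Impact had no entry. The member start regions held a median of 15.5 CpG dinucleotides, against 7 over all 32851 start regions. The letters TGCCGC, the sequence that ZFP57 is known to bind when its CpG is methylated, were searched on both strands (GCGGCA on the other strand). They were found in 15 of 54 member start regions (27.8%), against 11.6% of all start regions. Overlapping start regions of a gene, as at Mest, were counted separately. A match is a description of the letters, and the members' start regions are also richer in CpG. The sequences below are given 5′ to 3′ on the gene's strand. They are the outer start regions of Plagl1, Grb10, Slc38a4 and Meg3, and the start between Peg3 and Usp29. Those 4 genes are among the members whose alleles differed in count relative to their chromosome, in both replicates or in 1 only. Other such members are not shown. Capitals mark TGCCGC or GCGGCA.
Plagl1 (chr10:13090582-13090881, plus strand): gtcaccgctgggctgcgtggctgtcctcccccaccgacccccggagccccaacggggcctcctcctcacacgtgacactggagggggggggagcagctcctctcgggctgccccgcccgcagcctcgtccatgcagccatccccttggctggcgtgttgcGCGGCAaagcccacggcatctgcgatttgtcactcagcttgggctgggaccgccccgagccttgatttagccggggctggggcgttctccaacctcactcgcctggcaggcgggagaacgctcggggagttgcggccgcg
Grb10 (chr11:12037371-12037670, minus strand): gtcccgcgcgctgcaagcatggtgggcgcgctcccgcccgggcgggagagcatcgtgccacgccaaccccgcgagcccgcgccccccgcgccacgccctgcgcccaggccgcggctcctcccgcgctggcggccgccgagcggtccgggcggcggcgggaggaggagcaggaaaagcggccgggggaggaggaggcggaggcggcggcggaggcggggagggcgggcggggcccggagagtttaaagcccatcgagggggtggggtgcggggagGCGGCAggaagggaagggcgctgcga
Usp29 (chr7:6730333-6730632, plus strand): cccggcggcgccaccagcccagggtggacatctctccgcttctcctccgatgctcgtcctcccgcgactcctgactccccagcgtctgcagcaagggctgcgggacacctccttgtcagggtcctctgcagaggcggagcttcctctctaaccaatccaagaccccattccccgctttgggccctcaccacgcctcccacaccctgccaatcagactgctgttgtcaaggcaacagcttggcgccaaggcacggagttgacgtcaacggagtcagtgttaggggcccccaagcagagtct
Slc38a4 (chr15:97055907-97056206, minus strand): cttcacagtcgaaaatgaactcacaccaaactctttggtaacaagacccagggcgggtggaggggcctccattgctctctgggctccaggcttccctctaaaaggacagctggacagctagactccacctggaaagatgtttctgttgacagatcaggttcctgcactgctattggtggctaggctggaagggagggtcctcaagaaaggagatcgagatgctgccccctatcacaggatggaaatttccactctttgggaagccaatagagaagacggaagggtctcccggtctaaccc
Meg3 (chr12:109540746-109541045, plus strand): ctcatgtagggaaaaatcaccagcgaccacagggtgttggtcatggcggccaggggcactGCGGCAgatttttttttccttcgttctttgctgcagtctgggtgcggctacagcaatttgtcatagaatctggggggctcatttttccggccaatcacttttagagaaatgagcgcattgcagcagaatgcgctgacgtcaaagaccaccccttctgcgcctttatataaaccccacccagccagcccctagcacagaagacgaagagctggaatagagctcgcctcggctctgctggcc
The Plagl1 region has 26 CpG dinucleotides and the Grb10 region 45, each with 1 copy of the letters. The Meg3 region has 13 CpG dinucleotides and 1 copy. The Usp29 region, with 17, overlaps the start region of Peg3, which is read from the opposite strand, and has no copy. The Slc38a4 region has 5 and no copy.

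As a set, the imprinted genes carried about as many counts as other genes and about as many on each allele. In replicate 1 their 94 windows held 136 counts on 129 and 121 on CAS, and in replicate 2 they held 129 and 125. The 129 share was 52.9% and 50.8%, against 48.8% and 49.9% over all windows. Of the 45 genes with a row, 22 had more counts per window than the rest of their chromosome in both replicates, against a background of 45.5% of all genes. The median ratio to the chromosome was 1.30 and 1.02 in replicates 1 and 2, and over all genes it was 1.26 and 1.03.

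No imprinted gene passed the test for an allelic difference. edgeR's quasi-likelihood test compared 129 with CAS, with the total of each chromosome as the reference in every column, on all 26935 genes with a count. At a Benjamini-Hochberg adjusted p of 0.05 it called 0 of the 40 members with a count, against a background of 0% of genes in each direction. The smallest adjusted p among the members was 0.998, and an unadjusted p under 0.05 was reached by 0 members and by 529 of all genes. DESeq2 also called 0 genes (9 of all genes and 0 members at an unadjusted p under 0.05), and limma on square roots called 0 (2118 genes and 3 members). Window by window, edgeR called 1 of 34417 windows with a count (0.00291% higher on 129 and 0% higher on CAS) and none of the 73 member windows. An unadjusted p under 0.05 was reached by 3 member windows and by 1068 of all windows. With the replicate as a block edgeR called 0 windows, and 1 member window and 532 of all windows had an unadjusted p under 0.05. At counts this small a difference would have to be large to be called, so these results do not show that the alleles were alike.

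Direction was split between the alleles. Of the 40 genes with a count, 8 had more counts on 129 than on CAS in both replicates (background 14.1%): Sfmbt2, Mcts2, Peg10, Usp29, Plagl1, Grb10, Commd1 and Zrsr1. Inpp5f, Kcnq1 and Slc38a4, or 3 of 40, had more on CAS in both (background 15.3%). The split depended on the extent of the genes: with 50 kb added on each side, 6 of 44 genes had the 129 count above the CAS count in both replicates (background 18.9%) and 11 the CAS count above (background 20.6%). Another 4 genes (H13, Gnas, Phlda2 and Rasgrf1) were opposite between the replicates. The alleles had equal counts in at least 1 replicate in 25 genes. Relative to the 129 share of the rest of the chromosome, 18 of the 36 genes with a count in each replicate were above it in both (background 31.3%) and 6 were below (background 26.4%). Of those 18, 10 had equal counts on the alleles in at least 1 replicate, which counts as above wherever the chromosome is below a share of 50%.

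**Figure D1:**
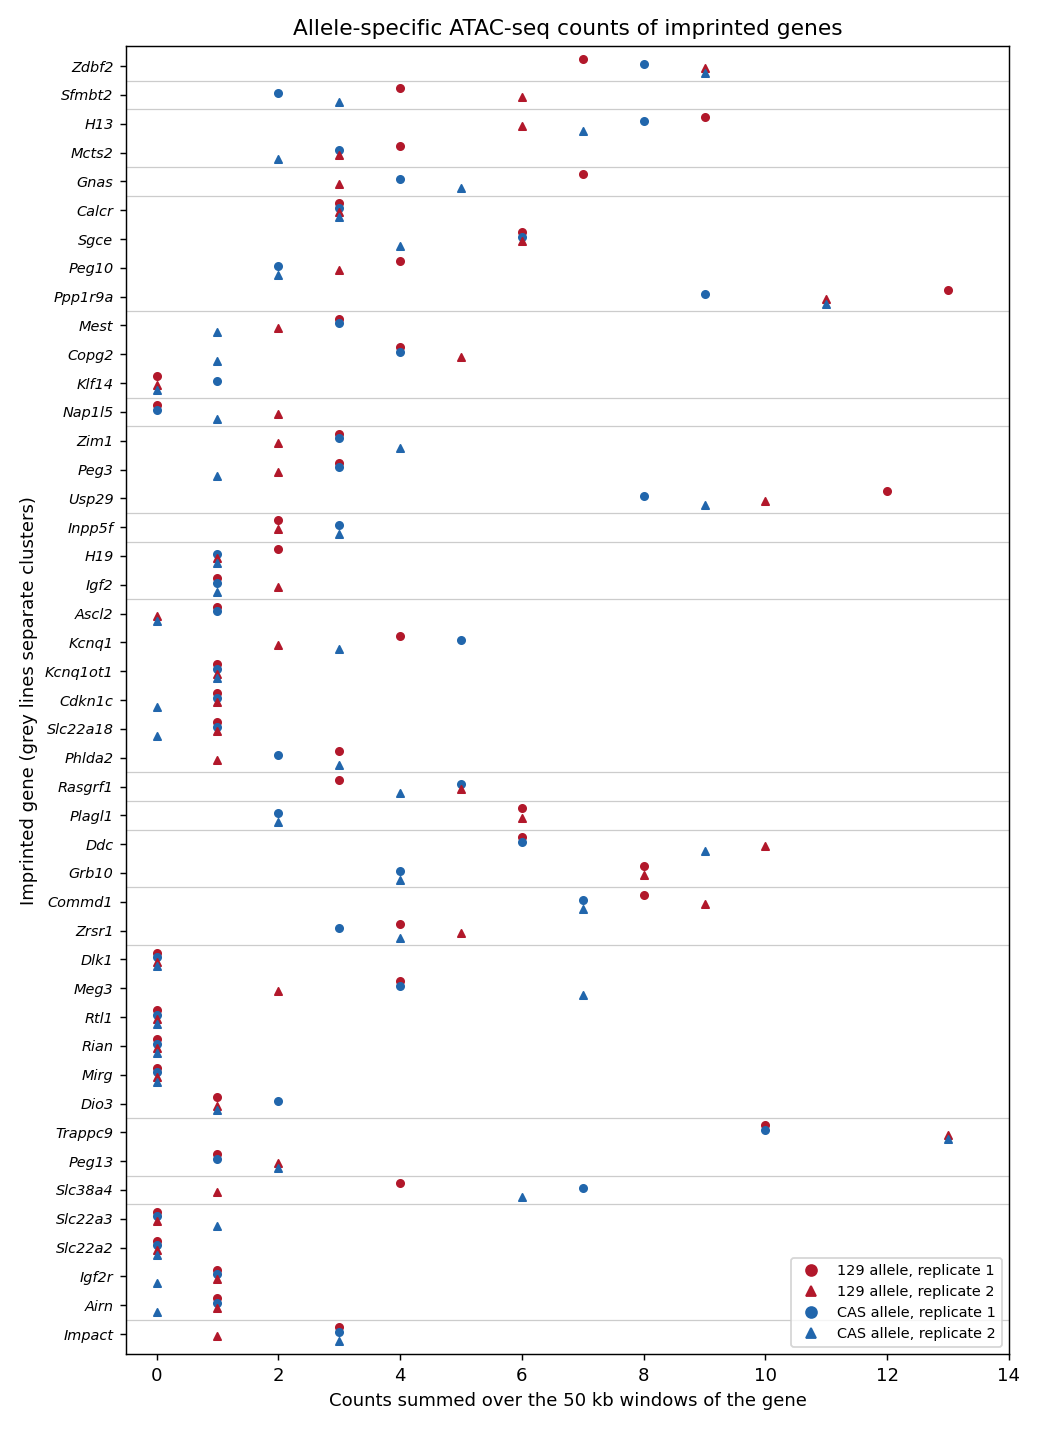
Counts on the 129 allele (red) and the CAS allele (blue) in replicate 1 (circles) and replicate 2 (triangles), summed over the 50 kb windows of each of 45 imprinted genes, with grey lines between clusters. Plagl1 and Grb10 show red symbols clear of the blue ones, Slc38a4 shows the reverse, and Dlk1, Rtl1, Rian, Mirg and Slc22a2 sit at 0.

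By the parent whose copy is known to be expressed, 20 paternally expressed genes had a count, of which both replicates had more on 129 in 6 (background 14.1% of all genes with a count) and more on CAS in 2 (background 15.3%). Among 17 maternally expressed genes with a count, 1 (Commd1) had more on 129 and 1 (Kcnq1) more on CAS, against the same backgrounds. In replicate 1 the windows of the paternally expressed genes held 63 counts on 129 and 59 on CAS, and in replicate 2 they held 65 and 56. Those of the maternally expressed genes held 66 and 60, then 57 and 61. The lists share windows, as Zrsr1 does with Commd1, and were not tested against each other.

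Plagl1 and Grb10 gave the same sums in both replicates, each with more on 129. Plagl1 encodes a zinc finger transcription factor that restrains cell growth and heads a network of imprinted genes. In both replicates its 129 count was 6 and its CAS count 2. (Below, pairs of counts are given as 129 and CAS, first for replicate 1 and then for replicate 2.) Its 129 share was 75.0% (95% Clopper-Pearson interval 34.9 to 96.8%) in each. Over the rest of chromosome 10, which itself leans to 129, the share was 59.8% and 55.6%. The share of the region around Plagl1 is not given separately, and its neighbour Phactr2 also had more on 129 in both replicates. The lean is thus not shown to be particular to Plagl1. The difference relative to the chromosome was 1.12 on the log2 scale (SE 0.51, edgeR adjusted p = 0.998). Here and below, the SE beside an edgeR value was derived from the F statistic. It is smaller than the DESeq2 SE of the same gene, which was 1.26 for Plagl1, so differences should not be read in multiples of it. Both of its windows leaned the same way: the window with the gene start had 3 and 1, then 2 and 0, and the next 3 and 1, then 4 and 2. Such intervals cover counting error only and assume independent reads. Between alleles the values varied less than that, at 0.333 and 0.465 of the binomial variance (windows with 4 or more counts), so the intervals are approximate.

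Grb10 encodes an adaptor protein that dampens insulin and growth factor signalling, and is expressed from the maternal copy in most tissues and from the paternal copy in neurons. The 129 count was 8 and the CAS count 4 in both replicates. The 129 share lay 18.1 and 15.8 percentage points above the rest of chromosome 11. The log2 difference was 0.99 (SE 0.43, DESeq2 SE 0.99, edgeR adjusted p = 0.998). That difference was 2.33 with windows that have 25 kb inside the gene and 0.62 with 50 kb added on each side. The 2.33 leaves out the window at the far end of the gene (11900001 to 11950000). That window had 5 and 3, then 5 and 4, which is most of the counts of Grb10, so the 2.33 rests on very few counts. A window wholly inside the gene body (chromosome 11, 11950001 to 12000000) had 1 and 2 counts on 129 and 0 on CAS. Counts on 129 alone with a sum of 3 or more were found in 1 of 73 member windows and 1.53% of all windows with a count. The window with the gene start had 2 and 1, then 1 and 0. Ddc, its neighbour, encodes an enzyme of dopamine and serotonin synthesis. It was balanced, with 6 and 6, then 10 and 9, at 2.66 and 3.76 times the density of its chromosome.

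Sfmbt2, a Polycomb group gene that is imprinted in the placenta, had 129 and CAS counts of 4 and 2, then 6 and 3. Its 129 share was 66.7% in each replicate, against 53.7% and 52.3% over the rest of chromosome 2. The log2 difference was 0.80 (SE 0.49, DESeq2 SE 1.25, edgeR adjusted p = 0.998). Most of it lay in the window of its starts, with 4 and 1, then 3 and 1, while the other 4 windows held 0 or 1 count in each column.

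Slc38a4, an amino acid transporter gene with high placental expression, had the lowest log2 difference among the members with more than 1 count. Its 129 and CAS counts were 4 and 7, then 1 and 6. Its 129 share of 36.4% (10.9 to 69.2%) and 14.3% (0.361 to 57.9%) compares with 48.0% and 50.9% over the rest of chromosome 15. The log2 difference was -1.31 (SE 0.49, DESeq2 SE 1.19, edgeR adjusted p = 0.998). It was -2.16 without replicate 1 and -0.62 without replicate 2, so its size differed between the libraries while its direction did not. With windows that have 25 kb inside the gene it was -2.05, which rests on a single window with 1 and 3, then 0 and 2. Inpp5f, a phosphoinositide phosphatase gene with an imprinted brain variant, had 2 and 3 in each replicate. These 2 genes and Kcnq1 were the members with more CAS counts in both replicates.

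Retrogenes that sit inside another gene share their windows with the host. Mcts2, a retrogene within H13, had 4 and 3, then 3 and 2 in its window, while H13, a signal peptide peptidase gene, had 9 and 8, then 6 and 7 over both of its windows. Zrsr1, a splicing factor retrogene within Commd1, had 4 and 3, then 5 and 4. Commd1, a regulator of copper and NF-kappa-B, had 8 and 7, then 9 and 7. Each of these differences on 129 was 1 or 2 counts. H13 and Commd1 were dense, at 4.23 and 2.38 times and at 2.22 and 2.11 times their chromosomes. Peg13, a noncoding RNA within Trappc9, had 1 and 1, then 2 and 2. Trappc9, a trafficking gene, had 10 and 10, then 13 and 13 over 11 windows, and both were exactly balanced.

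**Figure D2:**
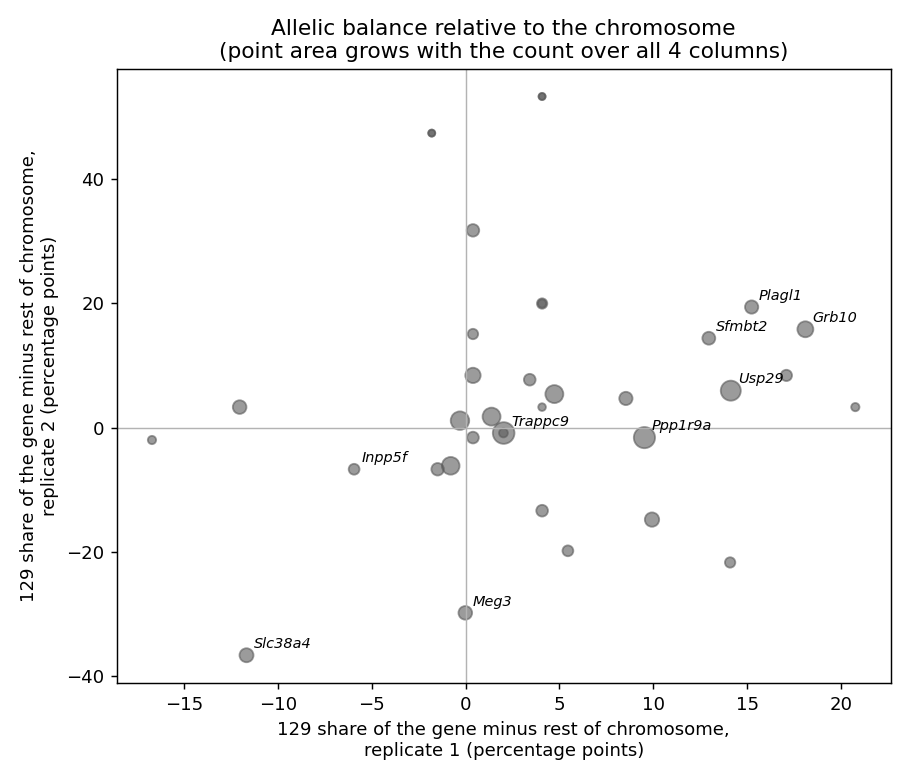
The 129 share of each gene minus that of the rest of its chromosome, in percentage points, in replicate 1 (horizontal) and replicate 2 (vertical), for the 36 genes with a count in each replicate. Plagl1, Grb10, Sfmbt2 and Usp29 lie to the upper right and Slc38a4 to the lower left, while Meg3 departs in replicate 2 only.

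The Peg3 domain holds the zinc finger genes Peg3 and Zim1 and the ubiquitin protease gene Usp29. Peg3 had 3 and 3, then 2 and 1, and Zim1, in the next window, had 3 and 3, then 2 and 4. Usp29 had 12 and 8, then 10 and 9, over 5 windows with a row. The window with the largest difference lay at its far end. The window at chromosome 7, 6950001 to 7000000, which also overlaps Zim3 and Aurkc, had 5 and 1, then 5 and 2, and was the single member window in which the alleles differed by 3 or more in the same direction in each replicate (background 0.299% of windows higher on 129 and 0.346% higher on CAS). Its log2 difference was 1.86 (SE 0.52, edgeR adjusted p = 0.998 over all windows; limma adjusted p = 0.107). The log2 difference of Usp29 was 0.58, and it was 0.34 without replicate 1. Without the far-end window alone, an alternative chosen after seeing the data, the gene had 7 and 7, then 5 and 7, and the log2 difference was -0.011. With only windows that have 25 kb inside the gene, which leaves out both that window and the window of its start, it was -0.29. The window of the shared Peg3 and Usp29 start, shown above, did not lean in replicate 1.

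The Peg10 domain on chromosome 6 held counts in all but 1 of its 12 member windows, with small differences. Peg10, a gene derived from a retrotransposon and needed for the placenta, and Sgce, which encodes epsilon-sarcoglycan, are read outward from facing starts. The window of that start had 4 and 2, then 3 and 2. Sgce as a whole had 6 and 6, then 6 and 4, and Peg10 had 4 and 2, then 3 and 2. Ppp1r9a, a neuronal actin-binding gene, had 13 and 9, then 11 and 11, so the excess of replicate 1 was not seen in replicate 2. Calcr, the calcitonin receptor gene, had 3 in every column.

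Mest, a paternally expressed gene of the hydrolase fold family, had 3 and 3, then 2 and 1. Copg2, a coat protein gene that overlaps its end, had 4 and 4, then 5 and 1, a sum that includes the Mest window. The other Copg2 windows with a row had 0 and 0, then 2 and 0, and 1 and 1, then 1 and 0. The gap of replicate 2 at Copg2 rests on that library. Klf14, a transcription factor gene, had a single count, on CAS in replicate 1. Nap1l5, a retrogene of the nucleosome assembly family, had counts in replicate 2 only, 2 and 1. Zdbf2, a gene that acts in the hypothalamus, had 7 and 8, then 9 and 9, nearly all of them in the window of its outer start. Rasgrf1, an exchange factor for Ras, had 3 and 5, then 5 and 4. Its last window (chromosome 9, 90000001 to 90050000), over the end of the gene, had 2 and 1 on CAS and 0 on 129, as did 1.81% of windows with counts on CAS alone and a sum of 3 or more.

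Gnas, which encodes the stimulatory G protein alpha subunit and has promoters with different imprints, had 7 and 4, then 3 and 5. The window with its outermost start carried nearly all of this, at 6 and 3, then 3 and 5. The direction was opposite in the 2 replicates. Impact, a regulator of translation on chromosome 18, had 3 and 3, then 1 and 3.

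H19 and Igf2 share enhancers through an insulator, with H19 read from the maternal copy and the growth factor gene Igf2 from the paternal one. H19 had 2 and 1, then 1 and 1, and Igf2 had 1 and 1, then 2 and 1. No difference exceeded 1 count. Of the Kcnq1 domain, the cell cycle inhibitor gene Cdkn1c and the transporter gene Slc22a18 lie in the same window, which had 1 and 1, then 1 and 0. Phlda2, which limits placental growth, had 3 and 2, then 1 and 3, and Ascl2, a trophoblast transcription factor gene, had 1 and 1, then 0 and 0. Kcnq1, a potassium channel gene, had 4 and 5, then 2 and 3 over 7 windows, and 4 of these windows were at 0 in all columns. The single window with counts over Kcnq1ot1, the noncoding RNA that silences the domain, holds its start and had 1 in every column.

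The Dlk1 to Dio3 domain and the Igf2r domain held few counts. In the first, the maternally expressed noncoding RNA Meg3 had the most. The window with its start (chromosome 12, 109500001 to 109550000) had 4 and 4 in replicate 1 and 2 and 7 in replicate 2. An excess on CAS was thus seen in replicate 2 only. The log2 difference of Meg3 was -0.91 (SE 0.48, DESeq2 SE 1.19, edgeR adjusted p = 0.998). It was -1.70 without replicate 1 and -0.00073 without replicate 2. From the next window on, 4 adjacent windows (109550001 to 109750000) over Rtl1, a retrotransposon-derived gene, and the noncoding RNAs Rian and Mirg were at 0 in all 4 columns. Dlk1, a Notch ligand relative, was also at 0. Dio3, which encodes the enzyme that inactivates thyroid hormone, had 1 and 2, then 1 and 1. Of the 17 windows from Dlk1 to Dio3, 10 were at 0, and of the 7 that overlap a member, 5 were. The background was 21.7% of all windows. Over all 94 member windows, 21 (22.3%) were at 0, near that background.

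In the Igf2r domain on chromosome 17, 7 of 10 windows were at 0. Slc22a2, an organic cation transporter gene, had none and its relative Slc22a3 had 1 count, on CAS in replicate 2. Igf2r, the receptor that clears IGF2, and Airn, the noncoding RNA that overlaps it, had the same 1 and 1, then 1 and 0 in shared windows. The 5 adjacent windows from 12450001 to 12700000 were empty. Runs of 5 or more adjacent empty windows held 2.09% of all windows, and runs of 4 or more held 3.50%. Altogether 5 of 45 genes with a row (Dlk1, Rtl1, Rian, Mirg and Slc22a2) were at 0 in all columns, near the background of 10.6% of genes. In a single column a count of 0 allows up to 3 counts (counting error only, for independent reads), which is above the mean of a window. Thus 1 column of 1 empty window could not be told from the mean level.

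**Figure D3:**
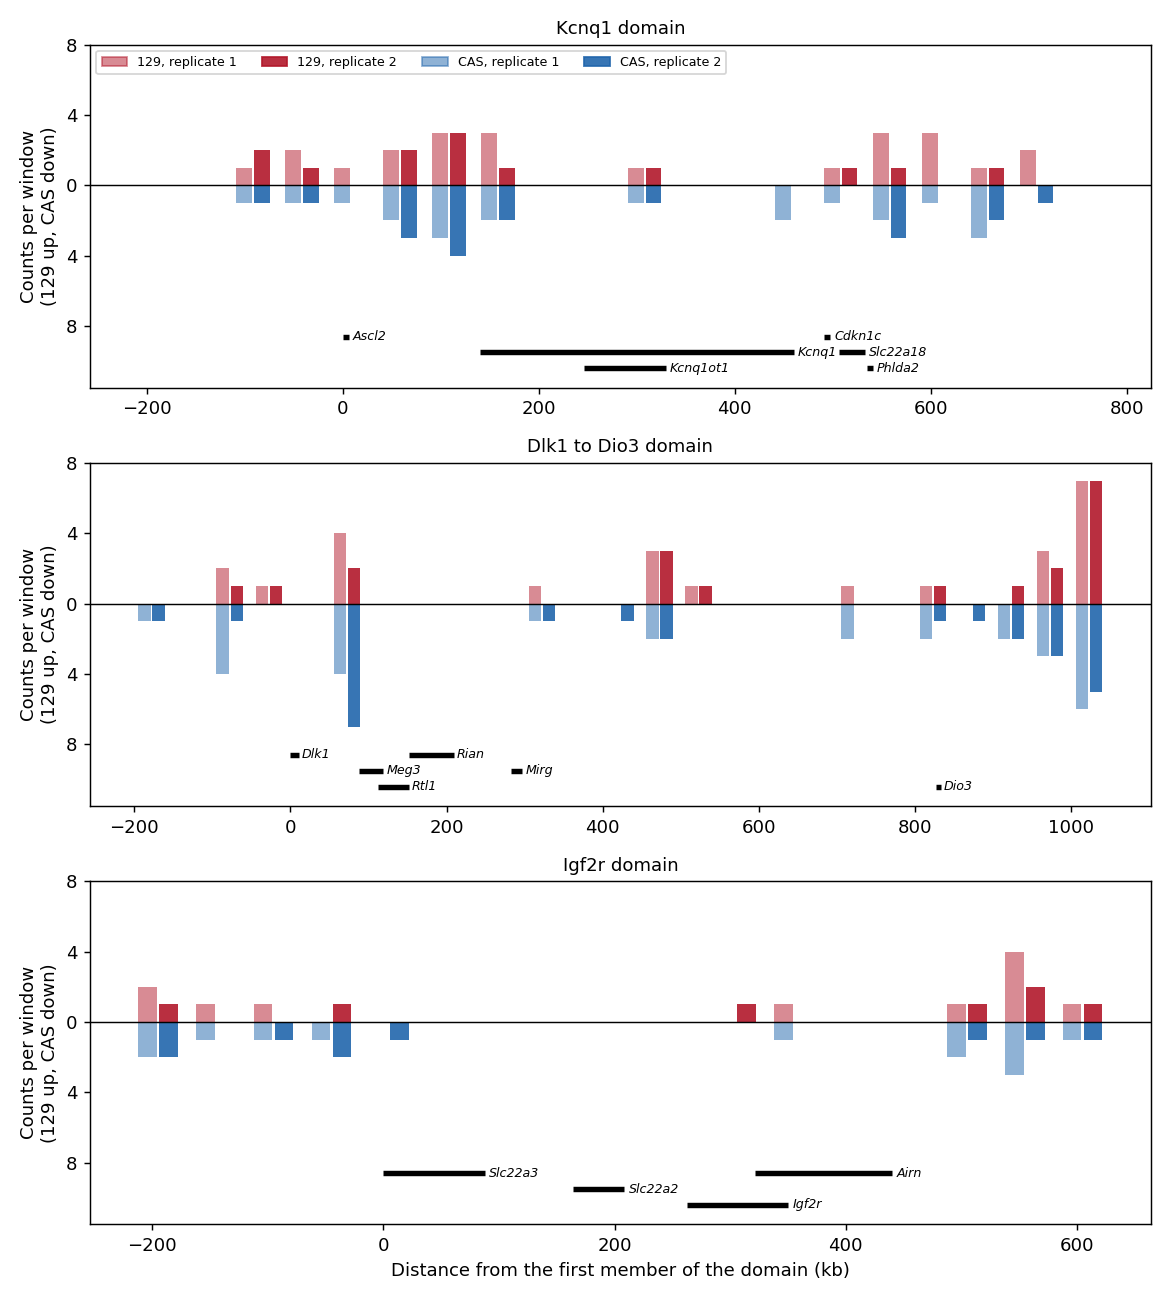
Counts per 50 kb window along the Kcnq1, Dlk1 to Dio3 and Igf2r domains, with 129 above and CAS below the axis, replicate 1 pale and replicate 2 dark, and the members as black bars, against distance from the first member in kb. A window at the Meg3 start stands out with 4, 4, 2 and 7 counts, followed by 4 empty windows, and 7 of 10 windows of the Igf2r domain are empty.

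The windows that hold the starts of genes whose promoter is a maternally methylated germline imprint were all occupied. For 14 such genes, 12 distinct windows had a row, and 12 of 12 held a count. Of all windows 21.7% held none, and of all genes with a row 10.6% held none. Windows at the starts of other genes were not counted, so occupancy is not shown to be particular to these genes. Summed, they had 26 and 21 (129 and CAS), then 23 and 18. Of the 12, 4 had more on 129 in both replicates (background 11.4% of windows with a count): those of Peg10 with Sgce, Plagl1, Mcts2 and Zrsr1. A window of Slc38a4 had more on CAS in both, with 1 and 3, then 0 and 2 (background 12.6%). Its other start window was opposite between the replicates, with 2 and 1, then 0 and 2. The window of the Airn start had a single count, on 129 in replicate 2. The 4 windows on the 129 side differed by 1 or 2 counts in each replicate.

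Level relative to the chromosome ranged widely among the members. At least 2 times the density of the chromosome in both replicates was reached by 5 of 45 genes (background 18.2% of all genes): H13, Zim1, Ddc, Commd1 and Zrsr1. Below 0.5 times in both lay 10 of 45 genes (background 19.7%), which were Klf14, Kcnq1ot1, Dlk1, Rtl1, Rian, Mirg, Slc22a3, Slc22a2, Igf2r and Airn. All but Klf14 and Kcnq1ot1 belong to the Dlk1 to Dio3 or the Igf2r domain.

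**Figure D4:**
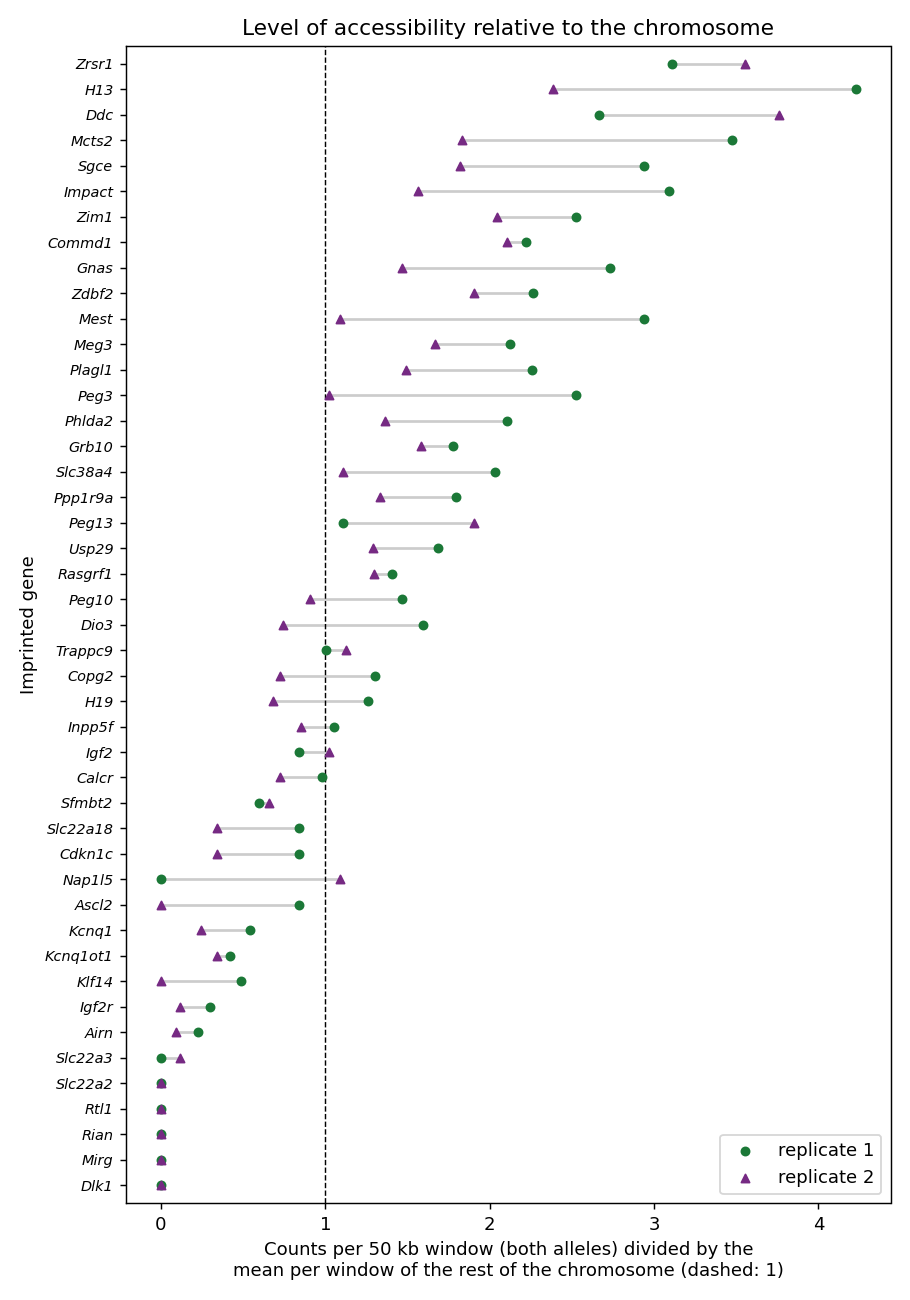
Counts per 50 kb window on both alleles, divided by the mean of the rest of the chromosome, for 45 imprinted genes in replicate 1 (circles) and replicate 2 (triangles), with the dashed line at 1. H13, Ddc and Zrsr1 are at the top and Airn, Slc22a3, Slc22a2, Rtl1, Rian, Mirg and Dlk1 at the bottom.

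Other genes reported as imprinted in the mouse were counted in the same way. Of 26 listed, 25 were found, 24 had a row and 21 a count. Cobl, Phactr2, Zim3, Pon2 and Pon3 had more on 129 in both replicates, and Chrac1, Asb4 and Smoc1 more on CAS, or 5 and 3 of 21 (backgrounds 14.1% and 15.3%). Of the 21, 4 share a window with a member and repeat its counts: Zim3 lies in the far-end window of Usp29 and Chrac1 in a window of Trappc9, and the others are Ins2 and Nap1l4. None passed edgeR's test over all genes. Cobl, an actin nucleator gene beside Grb10, had 8 and 4, then 11 and 8, in the same direction as Grb10, and Phactr2, beside Plagl1, had 2 and 0, then 2 and 1. Asb4, near Ppp1r9a, had 4 and 7, then 2 and 4. Of 8 genes whose products keep imprints in place, 7 had a row and all 7 a count, while Zfp57 had no row. Zfp445 had more on 129 in both replicates and Trim28 and Ctcf more on CAS, or 1 and 2 of 7 (backgrounds 14.1% and 15.3%). Zfp445 had 4 and 2 in each replicate, Trim28 had 8 and 11, then 9 and 10, and Ctcf had 6 and 7, then 4 and 7. Of the rest, Dppa3 had 9 and 9, then 8 and 11, and Setdb1, Dnmt1 and Uhrf1 had lower counts. None of these passed either.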

How the data were processed

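The authors deposited a table of whole-number counts per 50 kb window, in 4 columns, 1 for each allele of each replicate, and 0 other sample columns. Per the submitters' processing notes, Bowtie2, MACS2, SAMtools and bedtools were used on mm10. The sources used here give no versions and do not say what was counted, how reads were assigned to alleles or how windows were chosen. Between alleles the values varied less than independent reads would, at 0.333 and 0.465 of the binomial variance in replicates 1 and 2 (windows with 4 or more counts).

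Counts were summed over the windows of each gene (RefSeq positions on GRCm38.p6, 1-based). edgeR 4.0.16 (quasi-likelihood) used genes or windows with at least 1 count and offsets of the chromosome totals. Alternatives were TMM and DESeq2 size factors, filterByExpr with a minimum count of 10, the replicate block, DESeq2 1.42.0, limma 3.58.1 on square roots (0.375 added, centred by chromosome), an adjusted p of 0.1, other gene extents, the 5 Mb on each side, and each replicate alone. Both alleles of a replicate were read in the same library, so replicate numbers pair the columns, and their deviations correlated at r = 0.275 across windows.

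All 46 members were accounted for by cluster. Single windows were named where alleles differed by 3 or more in each replicate, or where 1 allele was at 0 and the other summed to 3 or more, and where they hold the start of a gene listed as having an imprinted promoter. The members and lists were chosen with earlier results of these data known.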

Additional observations from a re-analysis of the deposited data

How the results depend on the processing

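No member gene or member window was called under any alternative that tested one. With filterByExpr no member window was left to test and 2 member genes were. The replicate block called 0 genes, as without it, and 0 windows against 1. The number of windows called over the genome was 1, and it was 0 with TMM scaling, with DESeq2 size factors, with filterByExpr, with the replicate block and with the DESeq2 Wald test, 2 at an adjusted p of 0.1 and 74 with limma on centred square roots. The cause was not tested. With 50 kb added on each side, genes with more on 129 in both replicates numbered 6 instead of 8 (background 18.9%). Genes with more on CAS numbered 11 instead of 3 (background 20.6%). Genes below their chromosome numbered 11 instead of 6, and genes above it 17 instead of 18. In single replicates, where fewer comparisons must hold, 13 to 20 genes had more on 129 and 7 to 10 had more on CAS. There 23 to 27 lay above their chromosome and 11 to 15 below it. With the 129 share of the 5 Mb on each side as the reference, 16 genes lay above it in both replicates and 5 below. No share over all genes was computed for that reference, for single replicates, or for the level of the chromosome with 50 kb added. These numbers therefore have no background. Usp29 turned to -0.29 with windows that have 25 kb inside the gene, which leaves out its far-end window and its start window, and to -0.011 without the far-end window alone (an alternative chosen after seeing the data). It was 0.37 with TMM scaling and 0.36 with DESeq2 size factors. Those of Plagl1, Grb10, Sfmbt2 and Slc38a4 kept their direction under the alternatives run, with the sizes that moved by over 1.5 times given above. Meg3 had no direction without replicate 2, and no value with windows that have 25 kb inside the gene. Leaving out a replicate leaves 1 column per allele, so no test could be fitted. Counts of 0 to 13 per gene limit every allelic comparison here.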
